A study of Drosophila melanogaster with 3 samples.

Results

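The genes described here encode the subunits of the proteasome, the barrel-shaped protease that degrades proteins tagged with ubiquitin. A gene was included if its only symbol in the platform's gene table began with Prosalpha or Prosbeta, or with Rpn or Rpt and a digit. This gave 40 of 11981 named genes: 26 somatic subunit genes and 14 paralogue genes with a T or R in the ending of the symbol, most of them of the testis type. Replacing the table's symbols with current RefSeq symbols gave the same numbers of genes. RNA came from whole heads of adult Drosophila melanogaster aged 4 to 6 days and was measured on 3 Affymetrix arrays, with 1 array per genotype. The control was p247-Gal4,tub-gal80[ts]/+, so it carried the mushroom body Gal4 driver and the temperature-sensitive Gal80 repressor but no UAS transgene. The other flies had the same driver and repressor, with UAS-PKA-DN (dominant-negative protein kinase A, PKA) in the PKA-DN group and UAS-PKA-CA (constitutively active PKA) in the PKA-CA group. All flies were reared at 18 °C and, as 3-day-old adults, kept at 32 °C for 12 to 16 h, which inactivates Gal80, so the controls had the warm shift too. The driver acts in the mushroom bodies, the learning centres of the fly brain, and RNA was taken from the whole head, in which fewer cells of a type and less RNA per cell cannot be told apart. Going by the names of the transgenes, PKA activity should be low in PKA-DN and high in PKA-CA mushroom bodies; the submitted design text has the pairing the other way round, and the activity itself was not measured here.

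The proteasome has a core particle, a stack of alpha and beta rings whose inner chamber holds the protease sites, and a regulatory particle that binds ubiquitin chains, unfolds the substrate and feeds it into the core. Subunits are needed in matched amounts, and in flies as in mammals a transcription factor of the Nrf family raises many subunit genes together when proteasome activity is short. The proteasome and PKA meet in learning circuits: in the sea slug Aplysia, degradation of PKA regulatory subunits keeps the kinase active during lasting facilitation, and in mammalian cells PKA phosphorylates the lid subunit Rpn6, which raises proteasome activity. Phosphorylation and proteolysis are not seen by an expression array, which measures transcripts only.

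The 3 arrays had the same trimmed mean signal by construction, and median signals over all probe sets ranged from 82.8 to 89.6. The 3'/5' signal ratio, a measure of RNA integrity, ranged over the arrays from 1.70 to 2.05 for GAPDH, from 1.70 to 2.29 for actin and from 2.33 to 3.01 for eIF-4a. The head label was borne out by its markers: all 4 neuronal, 3 glial and 4 photoreceptor markers with a probe set were above the negative controls on every array. The summed signal of the neuronal markers was 7980 on the control, 6604 on the PKA-DN and 7785 on the PKA-CA array. The sums of the glial markers (14576, 13052 and 11718) and of the photoreceptor markers (78863, 73913 and 69435) were highest on the control and lowest on the PKA-CA array. Gs2, alrm, Arr1 and Arr2 had this order, also seen in several subunits, and repo, trp and trpl did not. Signals in the order control, PKA-DN and PKA-CA were 1458, 1347 and 1506 for repo and 8344, 10510 and 9659 for trpl. Quantile normalization turned Arr1 and Arr2 above the control on both PKA arrays. In PKA-CA their log2 ratios went from -0.17 to 0.046 and from -0.38 to 0.022. The 3 yolk protein genes, made by the female fat body, had sums of 97222 on the control, 79591 on the PKA-DN and 65450 on the PKA-CA array. The size of these differences depended on the scaling too. From deposited to quantile normalized values the log2 ratio of PKA-CA to control went from -0.56 to -0.21 for Yp1. It went from -0.46 to -0.043 for Yp2 and from -0.72 to -0.39 for Yp3, and that of Yp2 in PKA-DN from -0.26 to 0. All 4 blood cell markers and both muscle markers were above the negative controls too, with sums of 4576, 2202 and 2615 for blood cells and of 2565, 2906 and 3149 for muscle, while 3 of 4 ovary markers were not above them on any array. In PKA-DN over control the muscle markers went opposite ways, with log2 ratios of 0.40 for Mlc2 and -0.79 for TpnC41C. The part of these shifts in the proteasome values was not tested. With 1 array per group no value has a replicate error and there is no test, and differences between flies, extractions and hybridizations are part of every ratio.

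In whole-head RNA, proteasome subunit transcripts differed little between the genotypes. A change confined to the mushroom body cells, where the driver acts, would be diluted in such RNA, and its size there was not measured. In none of the 3 comparisons did any of the 26 somatic subunits reach a log2 ratio of 0.32 in either direction, which is a signal 25% higher or 20% lower. Among the 5991 genes compared, the upper 50% by signal, 6.13% were that much higher and 7.66% that much lower in PKA-DN against control. The shares were 7.85% and 9.66% in PKA-CA against control, and 9.70% and 9.68% when PKA-CA was set against PKA-DN. The widest subunit difference anywhere was Prosbeta4, 1.22-fold between the PKA arrays. For all 26 subunits the highest and lowest of the 3 arrays were less than 0.32 apart on the log2 scale, which was so for 67.7% of all genes compared. The gap had a median of 1.14-fold over the subunits and 1.18-fold over all genes.

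Within this narrow range, most subunits sat slightly below the control. In PKA-CA, 24 subunits were lower than in the control and 2 higher, where 50.5% of all genes were lower, with a median log2 ratio of -0.11 against -0.0032 for all genes. In PKA-DN, 16 were lower than in the control and 10 higher, where 51.7% of all genes were lower, with medians of -0.077 and -0.0095. Between the PKA arrays, 18 were lower in PKA-CA and 8 higher, where 49.8% of all genes were lower, with medians of -0.074 and 0.0011. The comparisons share arrays, so their ratios are not independent of each other. At 1.1-fold, a threshold chosen after values had been seen, 11 subunits were lower and 2 higher in PKA-CA against control, beside 27.5% and 25.7% of all genes. In PKA-DN against control the counts were 6 and 3 (25.2% and 22.5% of all genes), and between the PKA arrays 6 lower and 0 higher in PKA-CA (27.0% each way); the 6 became 10 with arrays centred or quantile normalized. For scale, in 244 genes with 2 probe sets of this brightness, the ratios from the probe sets of a gene differed by a median of 0.19, 0.20 and 0.22 on the log2 scale in the 3 comparisons.

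**Figure D1:**
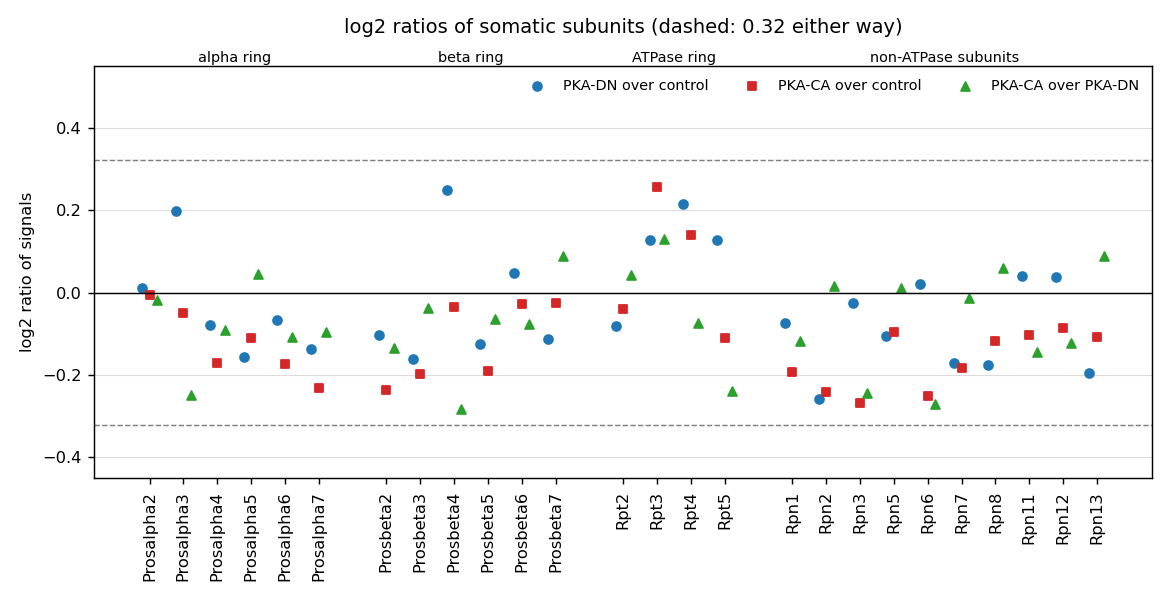
log2 ratios of signals (y axis) for each of the 26 somatic subunit genes (x axis, by ring or particle), with 1 point for each of the 3 comparisons and dashed lines at 0.32 either way. Every point lies between the dashed lines, and in PKA-CA over control all points but those of Rpt3 and Rpt4 lie below 0, that of Prosalpha2 barely (0.0010 with cyclic loess).

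The alpha subunits form the outer rings of the core, whose tails close the gate to the chamber. Of the alpha subunits, 6 of 7 could be analysed, and Prosalpha1 was not analysed here because its probe set is shared with Prosalpha1R. All 6 were below the control in PKA-CA, with a median log2 ratio of -0.14; the ratio of Prosalpha2 was -0.0072 and took the opposite sign with cyclic loess (0.0010). In PKA-DN 4 were below it and 2 above, with a median of -0.073. Of all genes compared, 50.5% were below the control in PKA-CA and 51.7% in PKA-DN. Counts by ring and particle, here and below, regroup the same 26 subunits on the same arrays and are not separate results. Prosalpha7 had signals of 1843 on the control, 1677 on the PKA-DN and 1569 on the PKA-CA array, with log2 ratios over control of -0.14 and -0.23. The control array was the highest for this subunit and PKA-CA the lowest. Prosalpha4 followed the same order, with 1472, 1393 and 1307 (-0.080 and -0.17), as did Prosalpha6, with 1456, 1390.0 and 1290.4 (-0.067 and -0.17). Prosalpha5 was highest on the control array as well, with 2196, 1972 and 2035 (-0.16 and -0.11). Prosalpha3, whose tail is the main bolt of the gate in yeast, went the other way in PKA-DN, with 2025, 2322 and 1956. Its log2 ratios over control were 0.20 and -0.050, and PKA-CA lay below PKA-DN by 0.25 on the log2 scale (-0.25). Prosalpha2 was nearly level, with 2455, 2475 and 2443, a gap of 0.019 on the log2 scale between the highest and the lowest array and the narrowest of the 26.

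The beta subunits form the inner rings, and beta1, beta2 and beta5 carry the protease sites. Of the 7, Prosbeta1 was not analysed here. The 6 others were all below the control in PKA-CA, with a median of -0.11, and 4 of them were below it in PKA-DN, with a median of -0.11. The shares of all genes below it were 50.5% and 51.7%. Prosbeta2, the trypsin-like subunit, had signals of 3259 on the control, 3036 on the PKA-DN and 2767 on the PKA-CA array (log2 ratios over control -0.10 and -0.24). Prosbeta5, the chymotrypsin-like subunit, had 3164, 2900 and 2773 (-0.13 and -0.19). Both catalytic subunits measured were therefore highest on the control and lowest on the PKA-CA array, as was the structural subunit Prosbeta3, with 2648, 2369 and 2310 (-0.16 and -0.20). Prosbeta4 was highest on the PKA-DN array, with 2235, 2654 and 2182. Its log2 ratio of 0.25 over control was the highest of all subunits in that comparison. In PKA-CA its ratio over control was -0.035, and over PKA-DN it was -0.28, the lowest of all subunits there. The remaining structural subunits differed least in PKA-CA: Prosbeta6 had 2367, 2445 and 2319.6 (0.047 and -0.029) and Prosbeta7 had 3027, 2798 and 2972 (-0.11 and -0.026).

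**Figure D2:**
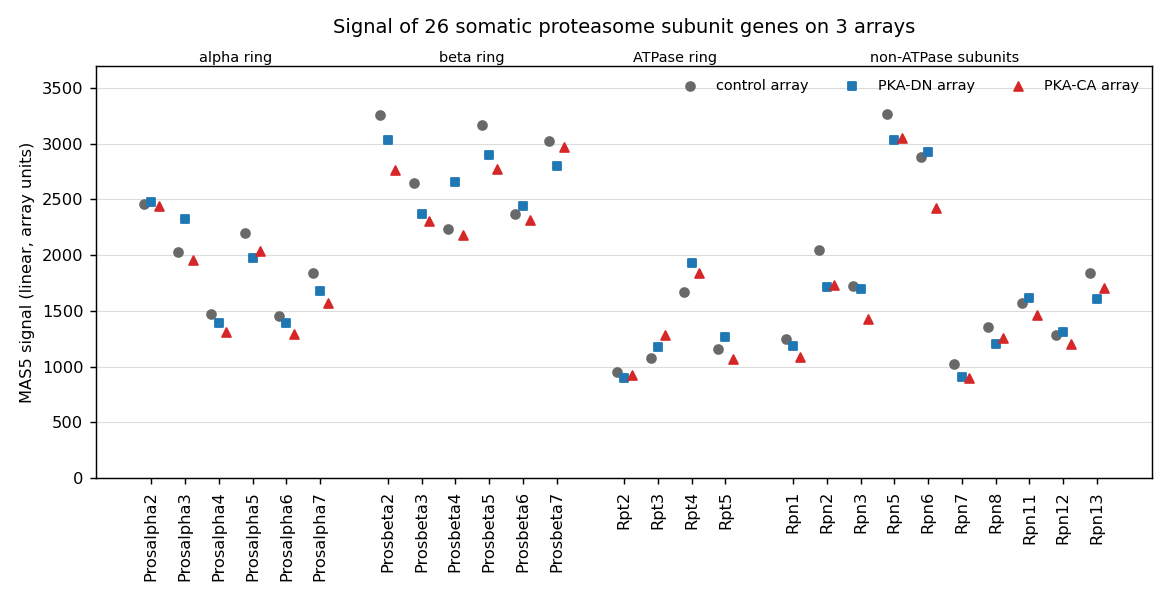
MAS5 signal (y axis, linear array units) of each somatic subunit gene on each of the 3 arrays, with 1 point per array. The points of a gene lie close together; signals of different genes come from different probes and are not comparable. Prosbeta4 and Prosalpha3 are highest on the PKA-DN array, Rpt3 on the PKA-CA array.

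The regulatory particle has a base, with a ring of the ATPases Rpt1 to Rpt6 that unfolds substrates, and a lid. Of the ATPase genes 4 were measured, and Rpt1 and Rpt6 were not analysed here. Their median log2 ratio against control was 0.13 in PKA-DN and 0.050 in PKA-CA, while the medians of the alpha, beta and non-ATPase subunits were below 0 in both; this difference was not tested. Rpt3 had signals of 1076 on the control, 1176 on the PKA-DN and 1286 on the PKA-CA array, with ratios over control of 0.13 and 0.26, the latter the highest of all subunits. Rpt4 was above the control on both PKA arrays as well, with 1666, 1932 and 1837 (0.21 and 0.14). Rpt3 and Rpt4 were the only subunits above the control in PKA-CA, joined by Prosalpha2 with cyclic loess. Rpt5 had 1157, 1264 and 1072 (0.13 and -0.11), and Rpt2 had 947, 896 and 922 (-0.081 and -0.040). The tails of Rpt2, Rpt3 and Rpt5 dock into the alpha ring and open the gate in yeast and mammals, and these subunits had no order in common over the arrays.

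Among the non-ATPase subunits 10 of 12 were measured, and Rpn9 and Rpn10 were not analysed here. All 10 were below the control in PKA-CA, with a median of -0.15, and 7 of 10 were below it in PKA-DN, with a median of -0.091. Beside them, 50.5% and 51.7% of all genes were below it. In the base, Rpn1 and Rpn2 are the large scaffold subunits and Rpn13 is a ubiquitin receptor. Rpn2 had signals of 2049 on the control, 1712 on the PKA-DN and 1732 on the PKA-CA array. Its ratios over control were -0.26 and -0.24, and the former was the lowest of all subunits in PKA-DN. Rpn13 had 1839, 1606 and 1708 (-0.20 and -0.11), and Rpn1 had 1245, 1182 and 1090.4 (-0.075 and -0.19). All 3 were highest on the control array.

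The lid holds the deubiquitinase Rpn11, with its partner Rpn8, and a set of scaffold subunits. Of the lid subunits measured, 7 of 7 were below the control in PKA-CA (median -0.12), and 4 of 7 were below it in PKA-DN (median -0.025). These 7 are among the non-ATPase subunits counted above, and 50.5% and 51.7% of all genes were lower. Rpn3 had signals of 1723 on the control, 1693 on the PKA-DN and 1430.1 on the PKA-CA array, with ratios over control of -0.025 and -0.27, the latter the lowest of all subunits in PKA-CA. Rpn6, the lid subunit that PKA phosphorylates in mammalian cells, had 2882, 2925 and 2423, with ratios over control of 0.021 and -0.25, and of -0.27 between the PKA arrays. For Rpn3 and Rpn6, then, the PKA-CA array was the lowest, by 1.21-fold at most, as it was for Rpn7, Rpn11 and Rpn12. Rpn11 had 1574, 1618 and 1464 (0.039 and -0.10), and Rpn12 had 1280.1, 1314 and 1206 (0.038 and -0.085). The other lid subunits were highest on the control array: Rpn7 had 1019.8, 906 and 898 (-0.17 and -0.18), Rpn8 1359, 1203 and 1253 (-0.18 and -0.12), and Rpn5 3264, 3032 and 3054 (-0.11 and -0.096).

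Between the PKA arrays, the widest intended contrast in PKA activity, Prosbeta4 (-0.28), Rpn6 (-0.27), Prosalpha3 (-0.25), Rpn3 (-0.24) and Rpt5 (-0.24) had the lowest ratios of PKA-CA to PKA-DN, and Rpt3 (0.13), Rpn13 (0.089) and Prosbeta7 (0.087) the highest. Members of every ring and particle were thus among the extremes. Rpn2 (0.017) and Rpn5 (0.010) were close to 0 and took the opposite sign when the arrays were centred (-0.016 and -0.023), and Rpn5 under quantile normalization as well (-0.0039).

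The spread of the subunits was set beside that of other large complexes. The interquartile range of the log2 ratios over the 26 subunits was 0.17 in PKA-DN against control, 0.15 in PKA-CA against control and 0.15 between the PKA arrays. Over all genes compared it was 0.26, 0.30 and 0.30. Over the 2013 genes whose mean signal lay within the range of the subunits it was 0.24, 0.27 and 0.29, and of these genes 70.4% had all arrays within 0.32. In PKA-CA, 50.5% of all genes compared were below the control, and 9.66% were below it by 0.32 or more. In the CCT chaperonin, which folds actin and tubulin, all 8 genes were below the control in PKA-CA (median -0.18), 2 of them by 0.32 or more. Of 33 cytosolic ribosomal protein genes, 30 were below the control in PKA-CA (median -0.22), 6 of them by 0.32 or more. Of 69 mitochondrial ribosomal protein genes, 39 were lower (median -0.019), and of 17 genes of the vacuolar proton pump 4 were lower and 13 higher (median 0.14). The proteasome median in PKA-CA (-0.11) lay between those of the cytosolic and the mitochondrial ribosome, except under quantile normalization, where the cytosolic ribosomal median was -0.0054 and the proteasome median -0.13. Arrays were within 0.32 of each other for 6 of 8 chaperonin genes, and for 81.8% of cytosolic ribosomal, 79.7% of mitochondrial ribosomal and 82.4% of proton pump genes; whether the proteasome differs from these was not tested.

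**Figure D3:**
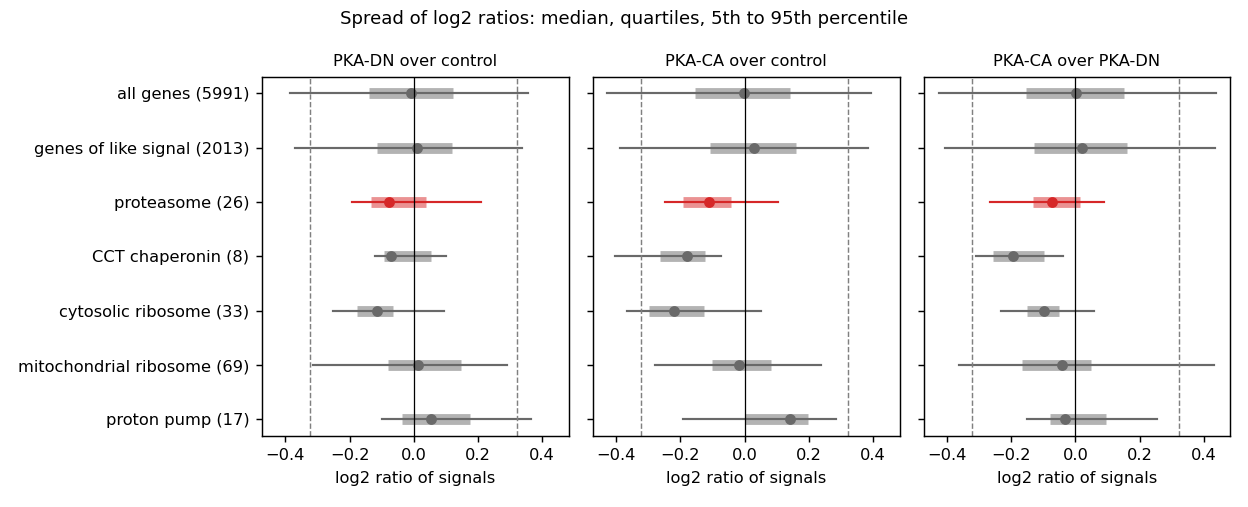
Distribution of log2 ratios (x axis) in the 3 comparisons for all genes compared, for genes in the signal range of the subunits, for the proteasome (red) and for 4 other complexes, with the number of genes in parentheses. Points are medians, thick bars quartiles and thin lines the 5th to 95th percentile; dashed lines mark 0.32 either way. The proteasome line stays inside the dashed lines in all 3 panels.

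The paralogue genes encode alternative subunits, most of which replace their somatic counterparts in the male germline; Prosalpha6T, for example, is needed for sperm development. All 14 had signals no higher than the highest of 99 negative-control probe sets on each array, which was 77.0 on the control, 77.8 on the PKA-DN and 70.9 on the PKA-CA array. Their signals ran from 1.22 to 65.7 with a median of 15.4 on the control array, from 1.71 to 65.9 with a median of 24.6 in PKA-DN, and from 0.937 to 69.3 with a median of 4.55 in PKA-CA. The negative controls had medians of 8.76, 10.5 and 5.43 in the same order, so the dim end of the PKA-CA array was lower for them too. By contrast, the somatic subunits had signals of at least 947, 896 and 898 on the 3 arrays.

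Among the paralogues of alpha subunits, Prosalpha3T had signals of 46.1 on the control, 44.7 on the PKA-DN and 21.7 on the PKA-CA array. In the same order of arrays, Prosalpha4T1 had 14.3, 5.25 and 4.06, Prosalpha4T2 had 14.5, 24.9 and 5.03, and Prosalpha6T had 4.42, 2.91 and 3.11. Among those of beta subunits, Prosbeta2R1 had 22.2, 65.9 and 10.5, Prosbeta2R2 had 16.3, 35.1 and 3.83, and Prosbeta4R1 and Prosbeta4R2 had 8.13, 2.07 and 0.937, and 48.4, 24.4 and 5.15. Prosbeta5R1 and Prosbeta5R2, paralogues of the chymotrypsin-like subunit, had 1.22, 9.46 and 2.55, and 3.38, 1.71 and 2.05. These are background values, which have no fold between arrays. In the regulatory particle, Rpt3R had 33.1, 21.6 and 1.79, Rpt4R 36.7, 45.3 and 13.4, Rpn12R 6.11, 25.8 and 10.1, and Rpn13R 65.7, 59.5 and 69.3. Rpn13R came closest to the highest negative control on the PKA-CA array. Of 15 testis germline markers with a probe set, 12 were likewise not above the highest negative control on any array, while mia, fzo and bol were above it on all 3, and the summed signal of the list was 786, 748 and 848.

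**Figure D4:**
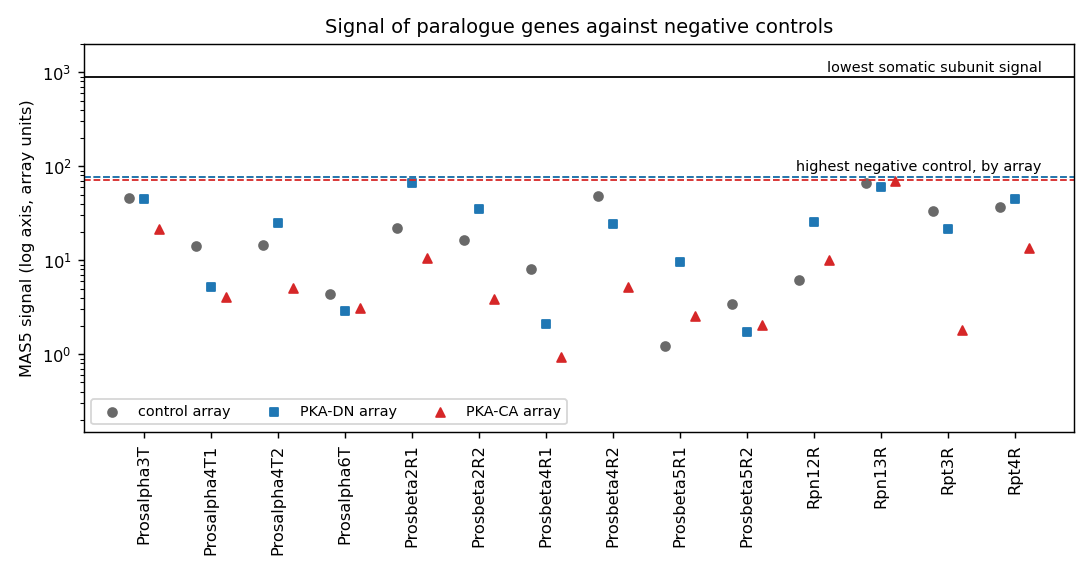
MAS5 signal (y axis, log scale, array units) of the 14 paralogue genes on the 3 arrays. Dashed lines are the highest negative control of each array (77.0, 77.8 and 70.9) and the solid line is the lowest signal of any somatic subunit (896); all points lie below the dashed line of their array.

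Genes that assemble, assist or feed the proteasome were described from lists. Of 14 accessory factors listed 12 were compared; Ubqn was not analysed here and Uch-L5, a proteasome-bound deubiquitinase, was too dim (254, 242 and 228). In PKA-DN, 8 were above the control, 1 of them by 0.32 or more, and 4 below, with a median of 0.032; of all genes 51.7% were below the control and 6.13% above it by 0.32 or more. In PKA-CA, 5 were above, 1 of them by 0.32 or more, and 7 below, with a median of -0.096, beside 50.5% and 7.85% of all genes. The member past 0.32 was Pomp in both comparisons, a count of 1 of 12 that is near the share of all genes. Pomp, the chaperone that matures the core particle, had signals of 1165 on the control, 1491 on the PKA-DN and 1469 on the PKA-CA array (log2 ratios over control 0.36 and 0.33). The control array was thus the lowest for Pomp, while 24 of 26 subunits were below the control in PKA-CA.

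REG, a cap that opens the core without ubiquitin, had signals of 2152, 2629 and 2019, with log2 ratios over control of 0.29 and -0.092, and of -0.38 between the PKA arrays. Sem1, a small lid subunit outside the naming rule, had 1951, 1965 and 1568, with ratios over control of 0.0098 (-0.012 under quantile normalization) and -0.316, and of -0.33 between the PKA arrays. REG and Sem1 were the accessory factors past 0.32 between the PKA arrays, where 9.68% of all genes were that much lower. Both were lowest on the PKA-CA array, as were subunits of every ring and particle. PI31, a proteasome-binding regulator, had ratios over control of -0.13 and 0.016, the latter turning to -0.012 with arrays centred and -0.010 under quantile normalization. Usp14, the other proteasome-bound deubiquitinase, had -0.18 and -0.22. The unfoldase gene TER94 had 0.034 and -0.14, and its cofactors Ufd1 0.089 and -0.10, Npl4 0.071 and 0.29, and p47 0.030 and 0.027, the last turning to -0.0016 with arrays centred. Among shuttle factors, which carry ubiquitinated proteins to the proteasome, Rad23 had 0.27 and 0.097, and rngo had -0.25 and -0.23. Nedd8, a ubiquitin-like modifier, had -0.20 and -0.15.

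Ubiquitin is encoded by the polyubiquitin genes Ubi-p63E and Ubi-p5E and, fused to ribosomal proteins, by RpL40 and RpS27A. Of 16 genes for ubiquitin and its conjugation 10 were compared. In PKA-DN, 4 were above the control, 2 of them by 0.32 or more, and 6 below, with a median of -0.027, where 6.13% of all genes were that much higher and 51.7% below. In PKA-CA, 4 were above and 6 below, 1 each way past 0.32, with a median of -0.079, where 7.85% of all genes were that much higher and 9.66% that much lower. Quantile normalization turned these medians to 0.055 and 0.059. The polyubiquitin genes went opposite ways: Ubi-p63E had signals of 8415 on the control, 7578 on the PKA-DN and 6630.3 on the PKA-CA array (-0.15 and -0.34), and Ubi-p5E had 5480.1, 7055 and 6648 (0.36 and 0.28). Their ubiquitin repeats are near-identical, so their probes may read both transcripts and the values are uncertain. RpL40 had -0.084 and -0.23 and RpS27A -0.027 and -0.12; quantile normalization turned the ratios of RpL40 in PKA-DN (0.011) and of RpS27A in both (0.10 and 0.15).

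Among ubiquitin-conjugating enzymes, Ubc2 had signals of 2005, 2569 and 2801, with ratios over control of 0.36 and 0.48, the highest of this list in PKA-CA. The Ubc13-type enzyme ben had 4030, 4422 and 4991 (0.13 and 0.31). Both were lowest on the control array. Ubc6 had ratios of 0.12 and -0.076 and Ubc7, of the endoplasmic reticulum pathway, -0.026 and -0.083. Of the ligases, Ufd4 had -0.18 and -0.26 and Ube3a, the fly form of the Angelman syndrome gene, -0.088 and 0.14.

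**Figure D5:**
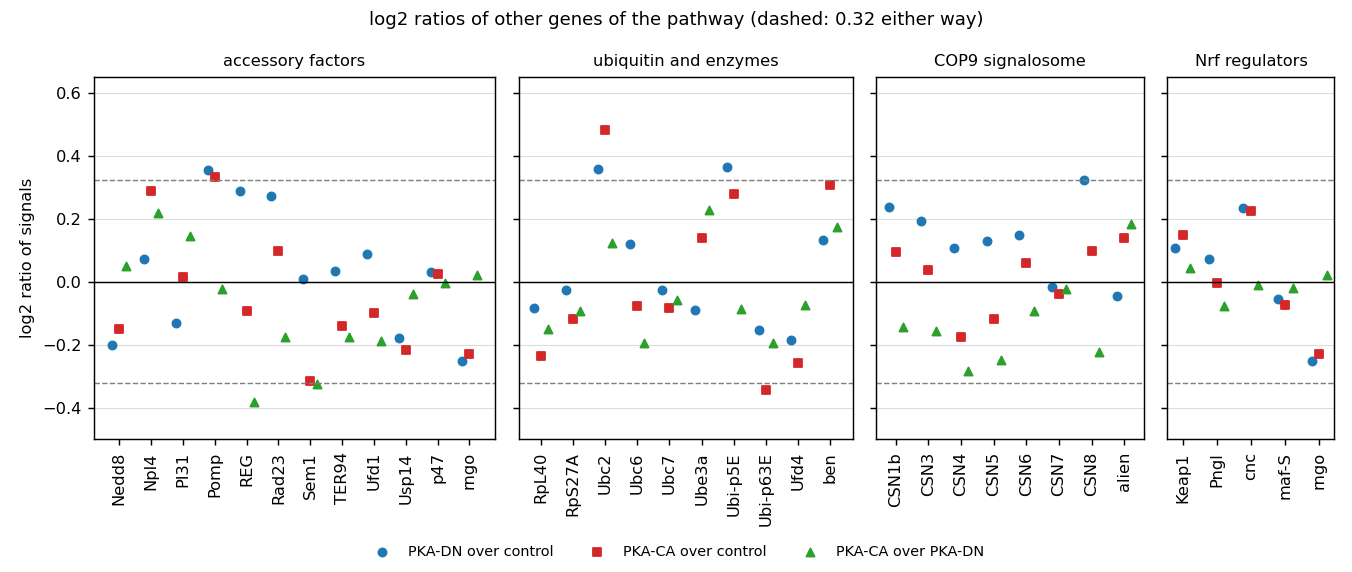
log2 ratios of signals (y axis) for genes of 4 related lists (x axis, by list), with 1 point for each of the 3 comparisons and dashed lines at 0.32 either way. Pomp, Ubc2 and Ubi-p5E reach above the upper line in PKA-DN over control and CSN8 touches it. In PKA-CA over control, Pomp and Ubc2 lie above the upper line and Ubi-p63E below the lower line. REG and Sem1 lie below the lower line in PKA-CA over PKA-DN, and rngo is on 2 of the lists.

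The COP9 signalosome, which removes Nedd8 from cullin ligases, is built like the lid. Of its 9 genes with a probe set 8 were compared. Against control, 6 were higher and 2 lower in PKA-DN (median 0.14), and 5 higher and 3 lower in PKA-CA (0.048), where 51.7% and 50.5% of all genes were lower. Between the PKA arrays 1 was higher and 7 were lower in PKA-CA (-0.15), where 49.8% of all genes were lower. CSN8 had the highest ratio over control in PKA-DN, at 0.32, followed by CSN1b at 0.24 and CSN3 at 0.19; their ratios in PKA-CA were 0.099, 0.096 and 0.037. The genes below the control in PKA-DN were alien, the CSN2 gene of flies, at -0.044 and CSN7 at -0.016. In PKA-CA alien had the highest ratio over control of these genes (0.14) and was the one higher than in PKA-DN (0.18), and CSN7 had -0.038 over control. CSN5, the catalytic counterpart of Rpn11, had 0.13 in PKA-DN and -0.12 in PKA-CA, CSN6 0.15 and 0.059, and CSN4 0.11 and -0.18.

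The Nrf-family factor of flies is cnc, which acts with maf-S and is held back by Keap1. In mammals and worms, Nrf proteins that serve proteasome genes are processed by relatives of Pngl and rngo. Of these 5 genes none reached 0.32 in any comparison. Among all genes, 6.13% to 9.70% did so in a given direction and comparison, so none of 5 is near that share. The median ratio of the 5 genes to the control array was 0.073 for PKA-DN and -0.0046 for PKA-CA. cnc had signals of 3572 on the control, 4202 on the PKA-DN and 4173 on the PKA-CA array (0.23 and 0.22). The control array was the lowest for cnc, which has 2 probe sets, of which the brighter was used. These ratios are about the size of the median difference between 2 probe sets of a gene (0.19 and 0.20). maf-S had ratios of -0.055 and -0.074, Keap1 0.11 and 0.15, and Pngl 0.073 and -0.0046.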

How the data were processed

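RNA from adult fly heads was measured on 3 arrays, 1 per genotype. Each deposited value was the linear intensity of a probe set, computed by the authors with MAS5, as the submitters' processing notes name it; version and settings: not given in the sources used here. The mean after trimming 2% at each end was 500.0 on every array. The deposited intensities were converted to log2, without a constant or another normalization. Of 14049 probe sets in the platform's gene table, which can be old, 13646 had 1 gene symbol, 402 several and 1 none. Genes with several probe sets used the one brightest by mean log2 signal; each subunit and paralogue gene had 1. Genes in the upper 50% by mean signal (5991, above 254) were compared, which kept all 26 somatic subunits and no paralogue. Negative controls were 99 of 100 Drosophila control probe sets, leaving out 1 above 1000. The number of arrays limits the precision.

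Every subunit and paralogue was named; of the pathway lists, the 3 highest and 3 lowest ratios per list and comparison, and accessory and ubiquitin genes with a described role. The comparison complexes were described as wholes. For 4 somatic subunits the probe set can match more than 1 transcript (suffix s). Members and lists were chosen with earlier results of these data known. The counting was tested on simulated data with planted changes and very little noise, which checks the code and not how reliable the counts are. RefSeq names came from Release 6 plus ISO1 MT, used for names and chromosome arms only. Sequences were not used here. Alternatives were constants of 16 and 64, centring, quantile normalization and cyclic loess (limma 3.58.1, R 4.3.3), averaged probe sets, no signal filter or the upper 25%, and updated symbols; a 1.1-fold threshold and a background of like signal were added after values had been seen. Python 3.11.15, pandas 2.3.3 and numpy 2.4.6 were used.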

Additional observations from a re-analysis of the deposited data

How the results depend on the processing

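Across the alternatives named above, the median log2 ratio of the 26 somatic subunits stayed below 0 in all 3 comparisons: from -0.077 to -0.070 for PKA-DN over control, from -0.14 to -0.11 for PKA-CA over control and from -0.11 to -0.072 for PKA-CA over PKA-DN. The counts of subunits past 0.32 on the log2 scale were 0 in either direction under all of them, but the largest difference was -0.315 (1.24-fold), with arrays centred, so the margin was small. Each subunit has 1 probe set, so averaging, the signal filters and updated symbols left the subunit values as they were. Added constants can only shrink a ratio. Only centring, quantile normalization and cyclic loess could therefore have raised these counts. All 14 paralogues stayed at or below the highest negative control on each array. Constants, centring and quantile normalization keep the order of probe sets within an array, and filters, averaging and symbols left the paralogue values unchanged. Only cyclic loess could therefore have changed this outcome. Centring moved the share of all genes below the control in PKA-CA from 50.5% to 55.4%, while 24 of 26 subunits were below it as deposited, centred or quantile normalized and 23 with cyclic loess. At 1.1-fold, the 3 subunits higher in PKA-DN became 5 with quantile normalization, and the 2 higher in PKA-CA became 1 with 64 added, arrays centred or quantile normalized. With no signal filter 25.3% of all genes were below the control in PKA-CA by 0.32 or more, against 9.66% in the upper 50%. For single subunits and genes whose log2 ratio is printed above, a sign that turned under a scaling is given beside the value. Some ratios not printed turned too, such as those of cnc and rngo between the PKA arrays and of nSyb in PKA-CA over control. A change in a median was counted only if it reached 0.1 on the log2 scale, as there is no replicate spread. No paired analysis was possible because each group has 1 array, and for the same reason no array could be left out.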

Other observations

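The subunit genes are spread over the genome: of the 26 somatic subunits 8 lie on arm 3R, 7 on 2R, 4 on 2L, 4 on 3L and 3 on X. The X-linked genes are Rpt3, Rpt4 and Prosalpha4, so both subunits above the control in PKA-CA are X-linked, and all 23 autosomal subunits were below it (median log2 ratio -0.11; Prosalpha2 turned to 0.0010 with cyclic loess). The 983 X-linked genes compared had a median of 0.026 in PKA-CA over control, against -0.0032 for all genes. The sex of the flies is not given in the labels, and 3 X-linked subunits are too few to describe a pattern. This was noticed after values had been seen and was not tested.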
